A study of Mus musculus with 24 samples.

Results

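The genes of ependymal cells and motile cilia were followed in RNA of mouse cortex. They were chosen by symbol: the numbered axonemal dynein heavy chain (Dnah), radial spoke (Rsph), cilia and flagella associated (Cfap) and tektin (Tekt) genes, together with 14 single genes that mark ependyma or build the axoneme. The deposited table holds 59 such genes among 43346, and 58 of them had at least 10 counts in at least 6 of the 24 libraries. Tekt3, with 50 counts in all and 10 in no library, was the gene left out. Closest to the minimum among those kept was Dnah14, which reached 10 counts in 11 libraries, followed by Rsph14 in 18. The count minimum was the measured value that selected the members, so the fact that they were detected is no finding. All 58 passed the filter on low counts that left 21891 genes for testing.

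The libraries came from 24 mice aged 54 to 58 days, in 4 groups of 6. Mice were labelled either control or Abca7 for genotype and either none or LPS for stimulus. Abca7 codes for a lipid transporter of the ABC family, and the study's design text describes the mutant mice as heterozygous. LPS, lipopolysaccharide from the outer membrane of Gram-negative bacteria, was injected. How much, by which route and how long before collection is not known here. The control groups carried the control label at either stimulus, and no vehicle injection is named for the groups without LPS. Libraries of a group were taken as separate animals because each title carries its own number. If those numbers do not mark animals, p-values measure only the spread between libraries. Replicate numbers used below count the samples of a group in their deposited order and are not labels of the study.

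Ependymal cells line the ventricles of the brain, and each carries a tuft of motile cilia that moves cerebrospinal fluid. The core of a motile cilium, the axoneme, is a ring of microtubule doublets around a central pair. Outer and inner dynein arms drive its bending, radial spokes link the ring to the central pair, and tektins lie along the doublets. Foxj1, a forkhead transcription factor, switches on genes of motile cilia, and RFX factors act on many of the same genes through a DNA sequence known as the X-box. Cortex as such is not ciliated tissue of this kind, so a cortical dissection holds ependyma only where it takes in ventricular lining. In bulk tissue, fewer ciliated cells and less RNA per ciliated cell cannot be told apart.

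Promoter sequences are shown for the motifs of RFX and forkhead factors near the members' start sites. RefSeq windows of GRCm38.p6, with 250 bases before and 50 after the start site, were found for 46 of the 58 members. One arm of the X-box, GTTGCC on either strand, stood in the windows of 19 of the 46 (41.3%), and in 12.5% of all 32851 windows. A strict X-box, GTTNCC followed after 0 to 3 bases by GGNAAC, was in none of the 46 and in 0.804% of all windows. A broader form, GTTNCC followed after 0 to 3 bases by NGNAAC on either strand, was tried after the strict form had given no match. It was in the windows of 13 members (28.3%) and in 1.86% of all windows. This broader form contains the strict one and, in some genes, overlaps a GTTGCC match. The forkhead motif GTAAACA, on either strand, was in 4 windows (8.70%), against 3.65% of all windows. A member was counted if any of its windows matched, and a few members had more than 1, such as Tekt2 with 3. The shares of all windows count each window, so the 2 kinds of share differ in unit. These are matches of letters and show no binding. In the runs below, written 5′ to 3′ on the strand of the gene, capitals mark the motif. The first 7 carry the broader X-box, Ccdc153 the single arm, and Ak7 and Cfap43 the forkhead motif.

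Hydin: cactctgcgGTTGCTGTGGCAACagatggt
Dynlrb2: tcctgcctgGTTGCCTAGCAACgggggaag
Dnaic1: ggtgcctgtcgGTTGCTGGGTAACcgcgtc
Cfap44: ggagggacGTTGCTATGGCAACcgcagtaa
Tekt2: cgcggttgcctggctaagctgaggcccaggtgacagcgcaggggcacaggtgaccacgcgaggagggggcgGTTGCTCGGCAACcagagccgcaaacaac
Dnah9: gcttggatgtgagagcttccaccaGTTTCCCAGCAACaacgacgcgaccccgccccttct
Spag16: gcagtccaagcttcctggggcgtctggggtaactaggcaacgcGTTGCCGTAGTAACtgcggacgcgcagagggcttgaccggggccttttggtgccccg
Ccdc153: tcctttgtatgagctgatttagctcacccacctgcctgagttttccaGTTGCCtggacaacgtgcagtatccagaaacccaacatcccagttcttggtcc
Ak7: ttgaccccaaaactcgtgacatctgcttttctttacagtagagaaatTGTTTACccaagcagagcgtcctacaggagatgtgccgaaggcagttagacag
Cfap43: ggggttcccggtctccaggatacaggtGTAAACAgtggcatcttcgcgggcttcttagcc

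The motif began 19 bases before the start site in Dnaic1, 21 in Hydin, 27 in Cfap44, 29 in Tekt2, 51 in Dynlrb2, 82 in Dnah9 and 103 in Spag16. These distances are from the RefSeq start site. The single arm in Ccdc153 began 152 bases upstream, and the forkhead motif began 131 bases upstream in Ak7 and 55 in Cfap43. The stretch of Hydin lies at chr8:110266947-110266976 on the plus strand, that of Dynlrb2 at chr8:116504955-116504984 on the plus strand, that of Dnaic1 at chr4:41569764-41569793 on the plus strand and that of Cfap44 at chr16:44394764-44394793 on the plus strand. Those of Tekt2 at chr4:126325689-126325788 on the minus strand and Dnah9 at chr11:66168598-66168657 on the minus strand follow, with Spag16 at chr1:69826824-69826923 on the plus strand. Ccdc153's lies at chr9:44240478-44240577 on the plus strand, Ak7's at chr12:105705804-105705903 on the plus strand and Cfap43's at chr19:47837384-47837443 on the minus strand. In GENCODE M21, annotated exons cover 30 of the 30 bases shown for Hydin, 19 for Dnaic1 and 11 for Dynlrb2, and none of the others.

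Total counts ran from 48149131 to 75741388 per library, and the members together took 14194 to 27032 of them. The 5 markers fixed for ependyma, Foxj1, Tmem212, Ccdc153, Rarres2 and Dynlrb2, had at least 12 counts in every library, and neuron markers averaged 9.19 to 9.31 log2 CPM. Lcn2, a gene strongly induced by LPS in brain, was at 0.288 ± 0.117 CPM (read counts scaled for library size; SD, n = 6) in control mice without LPS and at 94.6 ± 8.21 CPM with it. Under the Abca7 label it was at 0.701 ± 0.289 CPM without LPS and at 77.0 ± 26.1 CPM with it, from 28.9 to 104. The mean of 4 genes that LPS induces was 2.72 log2 CPM in LPS replicate 4 labelled Abca7, below the 4.75 to 5.63 of the other 5 libraries of that group. Abca7 itself was at 28.6 ± 2.22 CPM (SD, n = 6) in unstimulated control libraries and at 32.1 ± 2.07 CPM in unstimulated libraries labelled Abca7. Its level was thus not lower under the Abca7 label, and genotype is given below as labelled. Libraries also differed in genes of tissues next to the ventricles. Ttr, the transthyretin gene that choroid plexus expresses strongly, was at 2.31 to 4.30 log2 CPM in 5 of 6 unstimulated control libraries and at 8.03 in the sixth. It was at 7.37 to 8.92 in all control libraries with LPS. Under the Abca7 label it was at 5.59 in 1 library without LPS and 7.47 to 8.81 in the others, and at 4.60 in 1 library with LPS and 7.85 to 8.57 in the others. Results below are therefore given with and without the 7 libraries under 7 log2 CPM of Ttr where these change them.

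Compared per kilobase of gene length, mean levels over 24 libraries ran from 0.0352 to 22.4 CPM, and most members were low. Foxj1 was at 2.52 CPM per kilobase. Among the ependymal markers, Rarres2, which encodes the secreted chemoattractant chemerin, was at 11.8, against 1.35 for Ccdc153 and 1.02 for Tmem212. The dynein heavy chains, very long genes, lay between 0.0352 in Dnah8 and 0.993 in Dnah17, an outer arm chain. Dnah1, an inner arm chain, was nearly as high at 0.951, and Dnah5, the outer arm chain of airway and ependymal cilia, was at 0.430. Dnaic1, an intermediate chain of the outer arm, was at 0.913, and Dynlrb2, a light chain, at 1.03.

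Radial spoke genes were led by Rsph9, Rsph10b and Rsph1, at 4.25, 2.36 and 1.77 CPM per kilobase. Tektins were led by Tekt5, Tekt4 and Tekt1, at 3.57, 1.38 and 0.867. Of the central apparatus genes, Spag6 was at 1.21, Spag17 at 0.255, Hydin at 0.145 and Spag16 at 0.126. The Cfap family was led by Cfap36, Cfap20 and Cfap97, at 22.4, 18.9 and 5.87, and Rarres2 stood between the second and the third of these. Those 3 Cfap genes were also among the steadiest, with highest-to-lowest ratios over all 24 libraries of 1.19, 1.16 and 1.18. Tmem212, by contrast, ranged over 6.0-fold between libraries, Dynlrb2 over 5.05-fold and Ccdc153 over 3.84-fold. Tmem212 and Dynlrb2 had as few as 13 and 12 counts in a library, so part of that range is counting error. The table gives Cfap46 in 2 rows, told apart here by their lengths of 1667 and 5275 bases. The rows do not overlap, and both lie inside the span of the single Cfap46 gene of GENCODE M21.

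**Figure D1:**
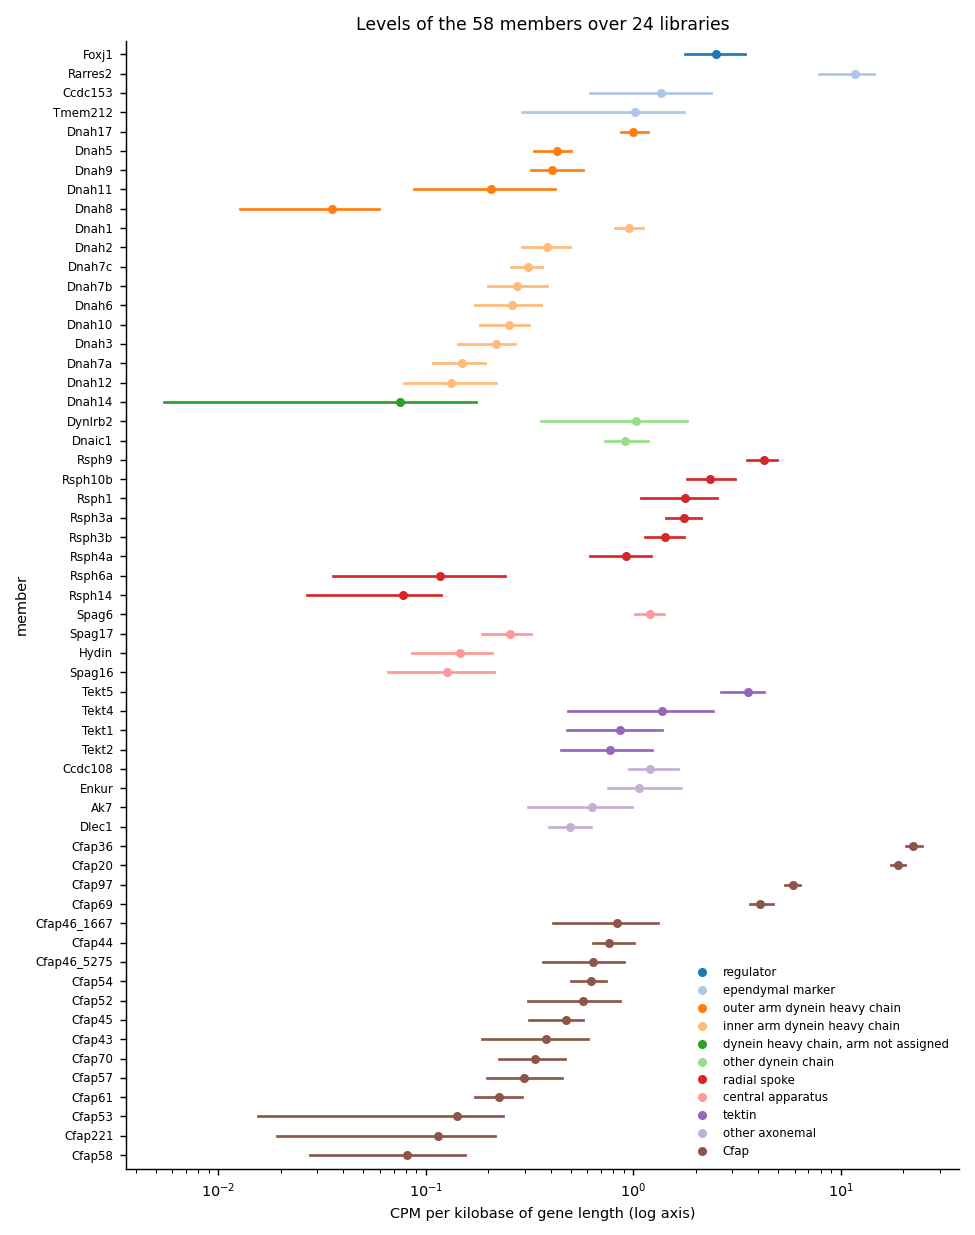
Level of each of the 58 members in CPM per kilobase of gene length, on a log axis, with the members grouped by role. Points are means over 24 libraries and lines run from the lowest to the highest library; Cfap36 stands at 22.4 and Dnah8 at 0.0352.

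Members did not vary as 1 block. After each group's mean was removed, the correlation of a member with the mean of the other members ran from -0.36 to 0.85 across the 24 libraries. This is given as a description, since the libraries share their dissection and fall into sets, as set out below. The 3 highest were Ak7, an adenylate kinase of the cilium (r = 0.85), Ccdc153 (0.84) and Dnah7b, an inner arm heavy chain (0.80). Of the 50-base words of Dnah7b, 30.1% also occur elsewhere, mainly in Dnah7c, and counts of these copies may be split between them. Hydin (0.78), Tmem212 (0.77) and Foxj1 (0.75) were close behind.

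The 3 lowest were Cfap20 (-0.36), Cfap54 (-0.32) and Rsph10b (-0.24). Cfap36 was also negative, at -0.22. By role, the median correlation was 0.77 for the 3 ependymal markers, 0.52 for the 4 central apparatus genes and 0.46 for the 9 inner arm heavy chains. It was 0.10 for the 5 outer arm heavy chains, of which Dnah11 stood apart with r = 0.61, 0.08 for the 8 radial spoke genes and 0.03 for the 17 Cfap rows. Dnah11, an outer arm chain, ran from 68 to 387 counts per library, and its highest level, 6.06 CPM, was in the unstimulated control library of high Ttr described above. It was also at 5.32 CPM in unstimulated control replicate 4, where Ttr was at 3.98 log2 CPM. Members with the broader X-box in their window ran from r = -0.14 in Cfap45 to 0.78 in Hydin, while Ak7 and Tmem212 were high without it. The Cfap and radial spoke families held both members that varied with the ependymal markers, such as Rsph4a (0.74), and members that did not.

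The mean of the 58 members, on the log2 CPM scale, separated the libraries along with genes of thalamus and habenula, which border the ventricles. By the mean of 8 such genes the libraries fell into 2 sets: 11 at 4.02 to 4.50 log2 CPM and 13 at 2.95 to 3.60. The mean of the members was 1.51 to 1.65 in the 11 and 1.19 to 1.43 in the 13, so the sets did not overlap. Inside the sets, the thalamic mean and the mean of the members had r = -0.39 (n = 11) and r = -0.13 (n = 13), and no correlation pooled over both sets is given. With group means removed, marker lists of tanycytes, hippocampus, choroid plexus and astrocytes also varied with the members over the libraries, less closely. Those of neurons and striatum varied against the members. The relation was thus not particular to thalamus and habenula. The higher set held 1 of 6 unstimulated control libraries, 4 of 6 control libraries with LPS, 2 of 6 unstimulated libraries labelled Abca7 and 4 of 6 labelled Abca7 with LPS. The split is thus uneven over the groups compared. With the mean of the 8 genes as a covariate, a fit chosen after seeing the data, the median over members for LPS in control mice was 0.04, in place of 0.16. For the genotypes without LPS it was 0.16, in place of 0.15, with 46 of 58 members higher.

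**Figure D2:**
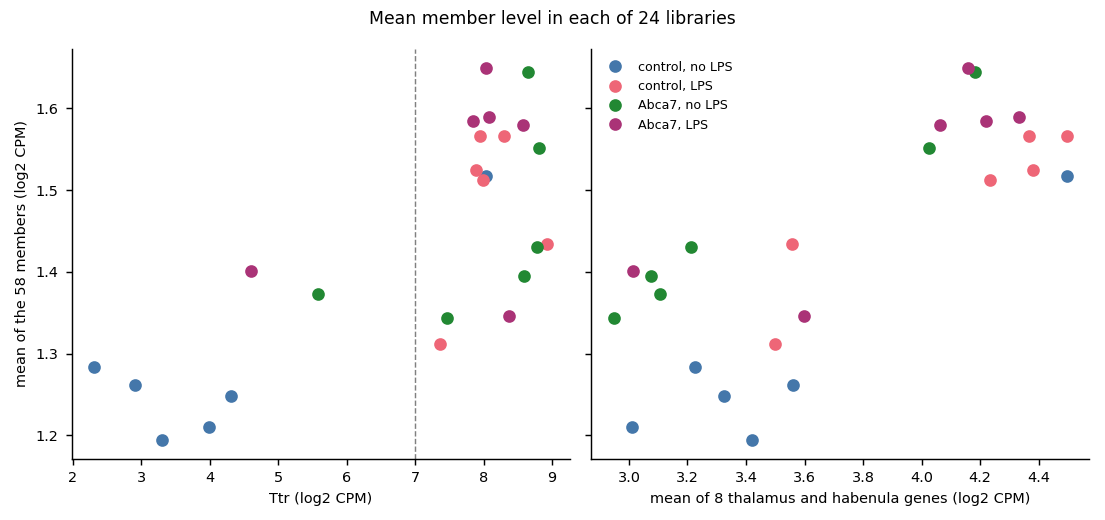
Mean log2 CPM of the 58 members in each of 24 libraries, against log2 CPM of Ttr (left, with the limit of 7 dashed) and against the mean log2 CPM of 8 thalamus and habenula genes (right). Each point is 1 library, coloured by group; the 5 unstimulated control libraries low in Ttr have the lowest means, 1.19 to 1.28, and the 11 libraries at the right of the second panel all exceed 1.51.

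Among the markers of ependyma and the genes that varied with them, Foxj1 had a lowest, median and highest value of 4.97, 5.96 and 8.15 CPM in unstimulated control libraries. With LPS the control libraries had 5.68, 6.86 and 8.68 CPM. Under the Abca7 label the values were 6.05, 7.33 and 9.08 without LPS and 4.65, 5.85 and 7.41 with it. All 4 groups overlapped.

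Tmem212, a membrane protein gene that marks ependyma, had 0.209, 0.541 and 0.90 CPM in unstimulated controls and 0.481, 1.01 and 1.19 in controls with LPS, in the same order of lowest, median and highest. The labelled Abca7 libraries had 0.395, 0.789 and 1.01 without and 0.371, 0.712 and 1.25 with LPS. Unstimulated controls held the lowest median of the 4 groups, and the ranges overlapped. Ccdc153, a coiled-coil gene used as an ependymal marker, had 0.852, 1.23 and 1.83 and 0.669, 1.68 and 2.25 CPM in controls without and with LPS. Its lowest library of all was a control with LPS.

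Hydin, a very large protein of the central pair, had 1.40, 1.87 and 2.46 CPM in unstimulated controls, 2.0, 2.61 and 2.73 in controls with LPS, 1.84, 2.38 and 3.10 in unstimulated labelled Abca7 libraries and 1.36, 2.59 and 3.28 in those with LPS. The last group held both the lowest and the highest library of the series. Spag16, another central apparatus gene, had 0.442, 0.485 and 1.04 CPM in unstimulated controls against 0.555, 1.03 and 1.27 with LPS. Ak7 had 0.964, 1.68 and 2.25 against 1.61, 2.33 and 2.74 CPM. In all 6 of these genes, the unstimulated control library with high Ttr was the highest of its group.

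**Figure D3:**
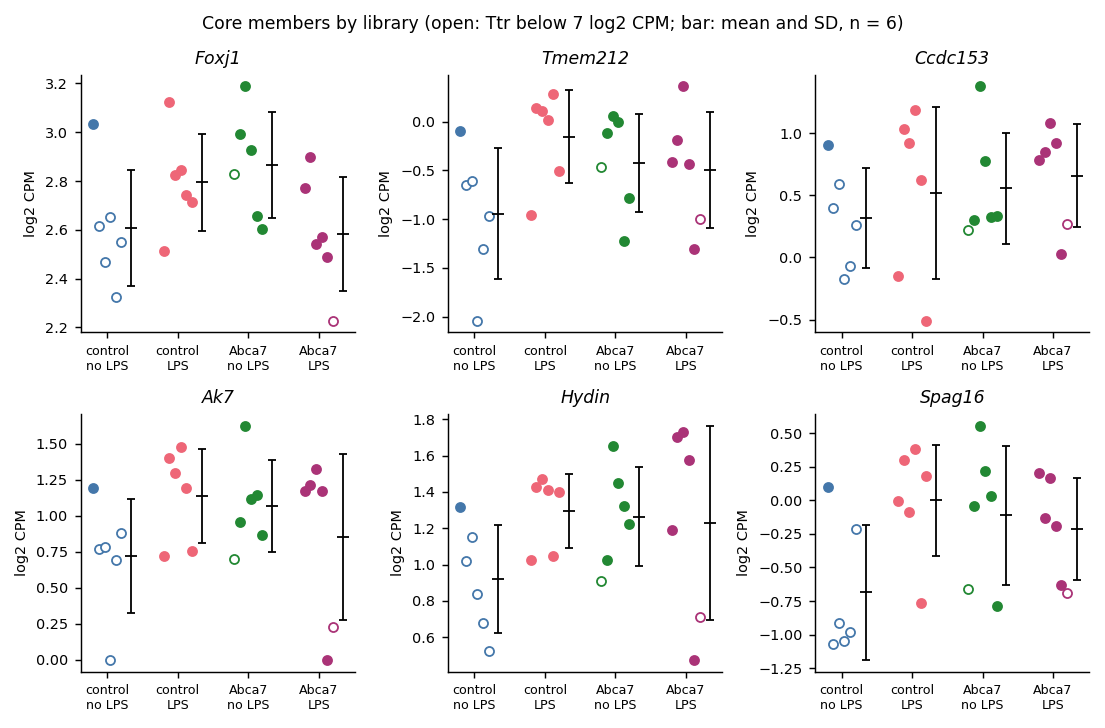
Log2 CPM of Foxj1, Tmem212, Ccdc153, Ak7, Hydin and Spag16 in each library, by group; open circles are libraries with Ttr below 7 log2 CPM and bars are group means with SD (n = 6). All groups overlap in each gene, and 5 of the 6 unstimulated control libraries are open circles.

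The response to LPS was compared within each genotype. In control mice, 5 of 58 members rose and none fell in edgeR's quasi-likelihood test at an adjusted p under 0.05: Cfap43, Tekt4, Dlec1, Dnah3 and Rarres2. That is 8.62% of the members, while 17.3% of all 21891 genes passed and 9.39% passed as higher, so called members were not more frequent than called genes in general. At an unadjusted p under 0.05 the counts were 15 members (25.9%) and 29.1% of all genes. Estimated changes leaned one way: 48 of 58 members were higher with LPS, with a median log2 fold change of 0.16, against 51.5% of all genes and a median of 0.01. Groups did not overlap in 3 members (5.17%), and in 9.06% of all genes.

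Cfap43, a motile cilium protein whose loss is linked to enlarged ventricles, had 1.86, 2.40 and 2.63 CPM in unstimulated controls and 4.40, 5.16 and 5.37 with LPS. Every control library with LPS exceeded every one without. The log2 fold change was 1.12 ± 0.12 (SE), with an adjusted p of 4.50e-08. The row of Cfap43 in the table, chr19:47737561-47919299 on mm10 with a length of 9955 bases, also covers Itprip, a neighbouring gene on the same strand that has no row of its own. In GENCODE M21 the exons inside that span come to 6355 bases for Cfap43, 3950 for Itprip and 10141 for both. Counts of this row therefore cannot be divided between Cfap43 and Itprip, and its change cannot be assigned to the cilium gene.

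Tekt4, a tektin at chr17:25471590-25476594 that overlaps no other annotated exon, had 0.744, 1.19 and 1.91 CPM in unstimulated controls and 2.35, 2.92 and 3.65 with LPS. These rest on 37 to 120 and 127 to 257 counts per library, and the groups did not overlap. The log2 fold change was 1.24 ± 0.24 (SE), with an adjusted p of 0.000299. Sstr5, a neighbouring gene, was at 0.64 ± 0.25 (SE, adjusted p 0.0759) in control mice and 0.51 ± 0.25 (0.216) under the Abca7 label. Any link of these estimates with the change of Tekt4 was not tested. The other tektins gave 0.40 (Tekt1), 0.17 (Tekt5) and -0.33 (Tekt2), and none passed. Tekt4 also differed from the core of the set in varying little with it (r = -0.01).

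Dlec1, an axonemal gene at chr9:119102478-119148246, had 2.63, 2.80 and 2.89 CPM in unstimulated controls and 3.20, 3.40 and 3.67 with LPS. The groups did not overlap, and the log2 fold change was 0.29 ± 0.07 (SE), with an adjusted p of 0.00575. Dnah3, an inner arm heavy chain at chr7:119922717-120095177, had 1.95, 2.29 and 2.90 and 2.70, 3.17 and 3.28 CPM, with some overlap. Its log2 fold change was 0.40 ± 0.13 (SE), with an adjusted p of 0.0276. Rarres2, at chr6:48569698-48572670, had 5.59, 7.07 and 8.55 and 7.61, 9.02 and 10.2 CPM, also overlapping, and a log2 fold change of 0.30 ± 0.10 (SE), with an adjusted p of 0.0393. In GENCODE M21, Rarres2 shares 892 exonic bases with Lrrc61 on the opposite strand, and counting may not have used strand. That M21 model has 2656 exonic bases and the deposited row only 708, so how much of the row is shared is not known. Lrrc61 itself rose by 0.22 ± 0.06 (SE, adjusted p 0.0177). Dnah3 and Dlec1 also share exonic bases with a gene on the other strand, Lyrm1 and Acaa1b, whose estimates were -0.08 (adjusted p 0.559) and 0.10 (0.527).

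Several core members had larger estimates than these and did not pass. Tmem212 was at 0.79 ± 0.30 (SE), with an adjusted p of 0.0736, and Spag16 at 0.68 ± 0.25 (SE), with an adjusted p of 0.0681. Dnah6 was at 0.46 ± 0.16 (SE) and missed the threshold narrowly (adjusted p 0.0543). Foxj1, Ccdc153, Hydin and Ak7 were at 0.18, 0.30, 0.37 and 0.42, with adjusted p-values of 0.341, 0.499, 0.184 and 0.193. With Ttr as a covariate, the estimates of Foxj1, Ccdc153, Hydin, Ak7 and Spag16 were -0.20, -0.13, -0.08, -0.06 and -0.05, and that of Tmem212 was 0.23. Ttr nearly separated these 2 groups, so this fit cannot tell a change with LPS from one with Ttr. Ttr and the mean of the members had r = 0.19 in the 17 libraries at or above 7 log2 CPM of Ttr. In the 7 below, r was 0.55, and in the 5 controls among these it was -0.54. In the fit without a covariate, all 9 inner arm heavy chains and all 4 central apparatus genes had estimates above 0, against 3 of 5 outer arm heavy chains.

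Choroid plexus markers moved with this comparison. Of 15 in the list, 10 rose and none fell, Ttr by 2.42 ± 0.74 (SE, adjusted p 0.0230) and Slc4a5 by 2.23 ± 0.55 (SE, adjusted p 0.00431), and the mean of the list ran from -0.11 to 2.42 log2 CPM without LPS and from 1.65 to 2.75 with it. The rarest, Lmx1a, had 351 counts over the 24 libraries. Without the 7 libraries low in Ttr, which leaves 1 unstimulated control, the median over members was 0.00 and 29 of 58 were higher. That 1 library is assumed to vary like those of the other groups. It also had the highest mean of the members in its group, 1.52 log2 CPM against 1.19 to 1.28 in the 5 left out. Leaving those out raises the baseline by itself, so this fit cannot show whether members rose with LPS. Cfap43 and Tekt4 passed with Ttr as a covariate (median 0.02), a fit in which 7.43% of all genes passed. Rarres2 was at 0.07 ± 0.13 (SE, adjusted p 0.868) with the covariate and at 0.05 ± 0.16 (0.937) without the libraries. Dnah3 and Dlec1 lost the call with estimates of similar size or larger and wider errors. Dnah3 was at 0.45 ± 0.19 (SE, adjusted p 0.197) with the covariate and at 0.60 ± 0.25 (0.253) without the libraries. Dlec1 was at 0.33 ± 0.11 (SE, adjusted p 0.0671) and 0.25 ± 0.15 (0.505). With the thalamus and habenula covariate, Rarres2 was at 0.16 ± 0.09 (SE, adjusted p 0.255) and Dnah3 at 0.33 ± 0.14 (0.115), and the other 3 passed. Rarres2 also missed the threshold with no filter on low counts (adjusted p 0.0519) and on the 2 groups alone (0.0536). It lost its call without any of replicates 2 to 5 with LPS or 3 to 6 without, and Dnah3 without replicate 4 with LPS or 1, 2 or 6 without, with adjusted p-values up to 0.115 and 0.0709. Without the 1 unstimulated control library of high Ttr, replicate 1, on the other hand, 11 members passed, and without replicate 4 of the controls with LPS, 3 did. The share of all genes in these fits is not given, so these counts show nothing particular to the members. Markers of meningeal fibroblasts moved the other way, 6 of 12 lower and none higher.

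**Figure D4:**
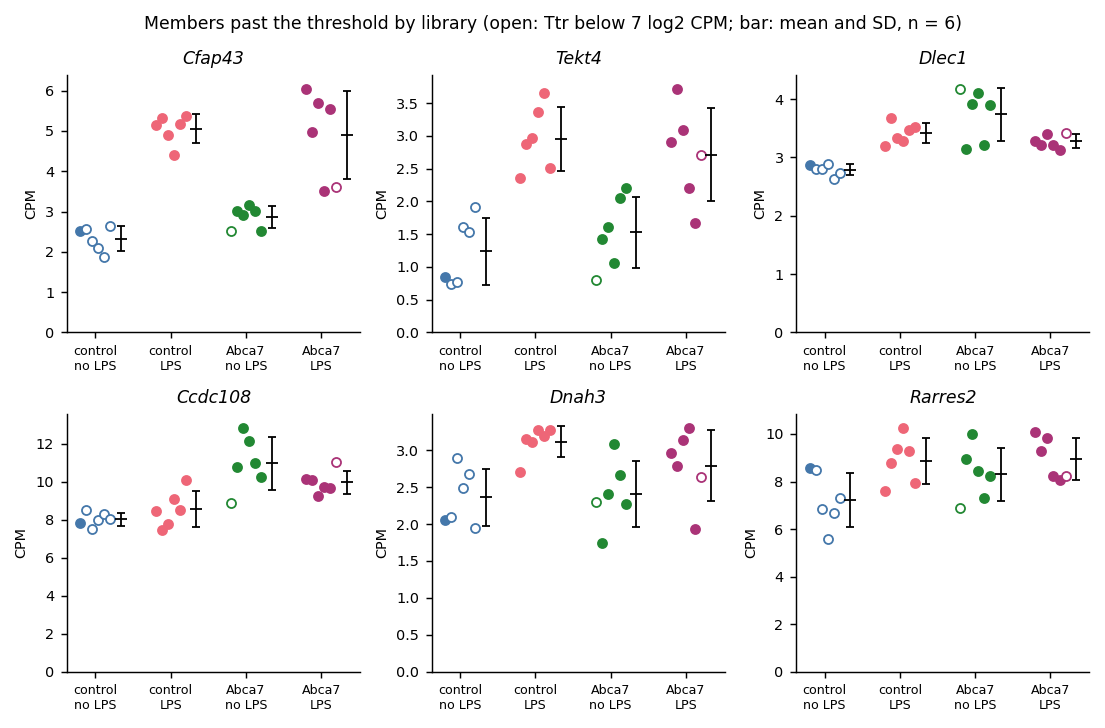
CPM of the 6 members past the threshold in at least 1 comparison, by library and group; open circles are libraries with Ttr below 7 log2 CPM and bars are group means with SD (n = 6). In Cfap43 the libraries with LPS lie above those without in both genotypes, and in Ccdc108 the unstimulated libraries labelled Abca7 lie above the unstimulated controls.

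In mice labelled Abca7, 2 of 58 members rose with LPS and none fell, Cfap43 and Tekt4. That is 3.45% of members, against 11.8% of all genes and 6.65% passing as higher. At an unadjusted p under 0.05 there were 7 members (12.1%) against 23.5% of all genes. Cfap43 had 2.51, 2.97 and 3.16 CPM without LPS and 3.51, 5.26 and 6.04 with it, without overlap, and a log2 fold change of 0.78 ± 0.12 (SE), with an adjusted p of 2.17e-05. It was the 1 member without overlap (1.72%), a state found in 5.73% of all genes. Tekt4 had 0.807, 1.52 and 2.20 and 1.67, 2.81 and 3.71 CPM, with overlap, and a log2 fold change of 0.82 ± 0.24 (SE), with an adjusted p of 0.0191. Its call was lost when replicate 1 or replicate 4 without LPS or replicate 2 with LPS was left out, with adjusted p-values up to 0.0640.

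The other members showed no common direction in these mice: 31 of 58 were higher, with a median of 0.01. Of the genes that passed in control mice, Dlec1 was at -0.19 ± 0.07 (SE) (adjusted p 0.105), Dnah3 at 0.21 ± 0.13 (SE) (0.344) and Rarres2 at 0.11 ± 0.10 (SE) (0.574). Foxj1 was at -0.28 ± 0.12 (SE) (adjusted p 0.150), Tmem212 at -0.05 and Spag16 at -0.14. None of the 15 choroid plexus markers passed here, and 2 of them were higher. Of 12 meningeal fibroblast markers 7 fell and none rose, with a median of -0.55, and their part in the members' values was not tested. Without LPS replicate 4, the library of weakest LPS response, Cfap43 and Tekt4 passed at 0.85 ± 0.11 (SE, adjusted p 1.83e-06) and 0.87 ± 0.24 (0.0157), and the median over members was -0.02.

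**Figure D5:**
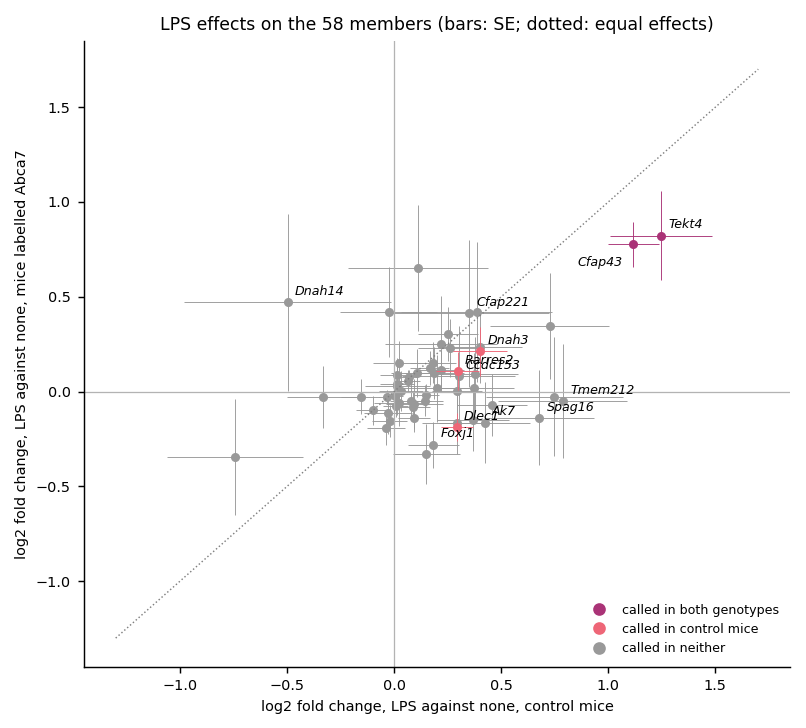
Log2 fold change of each of the 58 members with LPS in control mice (horizontal) and in mice labelled Abca7 (vertical); bars are SE and the dotted line marks equal effects. Cfap43 and Tekt4 passed in both genotypes and stand apart at the upper right, while most other members lie right of 0 on the horizontal axis and on both sides of 0 on the vertical.

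Genotypes were then compared without LPS. This comparison and that of LPS in control mice share the 6 unstimulated control libraries, so their values enter both. Only 7 of 21891 genes passed (0.032%), 3 of them higher (0.0137%), and 2 of the 7 were members, Ccdc108 and Dlec1 (3.45% of members). At an unadjusted p under 0.05 there were 16 members (27.6%), 15 of them higher, against 6.51% of all genes. Estimates were above 0 in 46 of 58 members, with a median of 0.15, against 49.6% of all genes and a median of -0.000657.

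Ccdc108, the axonemal gene now named Cfap65, at chr1:74902071-74935599, had 7.51, 8.01 and 8.48 CPM in unstimulated controls and 8.88, 10.9 and 12.8 under the Abca7 label. The groups did not overlap, and the log2 fold change was 0.45 ± 0.08 (SE), with an adjusted p of 0.0173. Dlec1 had 2.63, 2.80 and 2.89 against 3.14, 3.90 and 4.17 CPM, without overlap, and a log2 fold change of 0.42 ± 0.07 (SE), with an adjusted p of 0.0208. Dnah1 was the third member without overlap, at 10.5, 11.0 and 11.4 against 11.7, 12.6 and 14.3 CPM and 0.24 ± 0.06 (SE), and did not pass (adjusted p 0.218). Ccdc108 shares 287 exonic bases with Gm15841 on the other strand, which was at 0.54 ± 0.27 (SE, adjusted p 0.789). The 3 genes without overlap are 5.17% of members, while 0.26% of all genes had no overlap. Neither Ccdc108 (r = 0.08) nor Dlec1 (0.26) was among the members that varied most with the rest.

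Core members again had estimates above 0 without passing. Spag16 was at 0.60 ± 0.26 (SE) (adjusted p 0.691), Tmem212 at 0.51, Ak7 at 0.35, Hydin at 0.35 and Foxj1 at 0.26. All 15 choroid plexus markers had estimates above 0 (median 1.52) and none passed. The mean of that list ran from 0.32 to 2.82 log2 CPM in the unstimulated libraries labelled Abca7. With Ttr as a covariate, Ccdc108 was at 0.39 ± 0.11 (SE, adjusted p 0.151) and Dlec1 at 0.46 ± 0.11 (0.0946). Without the 7 libraries low in Ttr, which leaves 1 unstimulated control, Ccdc108 was at 0.54 ± 0.14 (SE, adjusted p 0.202) and Dlec1 at 0.35 ± 0.16 (0.516). Neither passed, while the estimates stayed near their size and the errors widened. The median over members was 0.04 with the Ttr covariate and 0.02 without the libraries. The latter fit keeps only the unstimulated control with the highest mean of the members, so it cannot show whether members differed. With the thalamus and habenula covariate it was 0.16, and 2 members passed. Spag16, Tmem212, Ak7, Hydin and Foxj1 were at -0.15, -0.05, -0.14, -0.11 and -0.12 with the Ttr covariate. Ttr nearly separated these 2 groups as well, so that fit cannot tell a difference with genotype from one with Ttr. Fitted on the 2 groups alone, Ccdc108 and Dlec1 had adjusted p-values of 0.0762 and 0.398. The call of Ccdc108 was also lost without replicate 3, 4 or 6 of the unstimulated controls or replicate 3 or 4 of the unstimulated labelled Abca7 libraries, with adjusted p-values up to 0.0750. That of Dlec1 was lost without any of replicates 2 to 6 of the former or replicates 3, 4 or 6 of the latter, with adjusted p-values up to 0.108.

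Under LPS, the genotypes differed in no member and in no gene (0% of 21891) in edgeR, and DESeq2 also called no member. At an unadjusted p under 0.05 there were 2 members (3.45%), Ccdc108 and Tekt2, both higher, against 7.99% of all genes. No member (0%) had groups without overlap, against 0.425% of all genes. Ccdc108 had 7.43, 8.47 and 10.1 CPM in controls and 9.23, 9.90 and 11.0 under the Abca7 label, and a log2 difference of 0.22 ± 0.08 (SE), with an adjusted p of 0.399. Estimates were above 0 in 33 of 58 members, with a median of 0.01.

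The difference between the LPS responses of the genotypes, tested as an interaction, passed for no member and no gene (0%) in edgeR or, among members, in DESeq2. At an unadjusted p under 0.05 there were 7 members (12.1%), all with an interaction estimate below 0, against 3.4% of all genes. They were Spag16, Ccdc108, Dnah6, the shorter Cfap46 row, Dlec1, Cfap52 and Foxj1. Dlec1 had the smallest p, with a difference of -0.48 ± 0.10 (SE), an unadjusted p of 9.74e-05 and an adjusted p of 1.0. Cfap43 and Tekt4 were at -0.34 ± 0.17 (SE) and -0.42 ± 0.33 (SE), so no difference between genotypes in their LPS responses was shown. The median over members was -0.11, and 0.00 without the 7 libraries low in Ttr. The latter fit again keeps only the unstimulated control with the highest mean of the members, and cannot decide the question.

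Other genes of the same biology were read from lists. Of 13 tested regulators of multiciliated cells, Ccno, a cyclin-like gene that acts as these cells multiply their basal bodies, rose with LPS by 0.82 ± 0.17 (SE, adjusted p 0.000933) in control mice and 0.60 ± 0.17 (SE, adjusted p 0.0191) in mice labelled Abca7. Rfx2, an RFX factor, fell in control mice, at -0.50 ± 0.15 (SE, adjusted p 0.0161), and E2f4 also fell, which made 1 higher and 2 lower. Of 25 genes of dynein arm assembly and docking, Ccdc103 rose by 0.79 ± 0.14 (SE, adjusted p 0.000175) and Dnaic2, an outer arm intermediate chain, by 0.46 ± 0.12 (SE, adjusted p 0.00916) in control mice, and none passed under the Abca7 label. Called genes were 3 of 13 (23.1%) and 2 of 25 (8.0%) in control mice, against 17.3% of all genes. With Ttr as a covariate 1 of 13 passed, as lower, so the rise of Ccno in control mice lost its call. Of the 25, 1 passed in that fit, as higher, and 7.43% of all genes passed.

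Of 76 further genes of ciliated cells, 14 rose and 3 fell in control mice with LPS, with a median of 0.16. The 17 called are 22.4% of the list, against 17.3% of all genes. With Ttr as a covariate 1 rose and 1 fell, with a median of 0.04, and 7.43% of all genes passed. Without the libraries low in Ttr, which leaves 1 unstimulated control, the median was 0.05. Without a covariate, the largest changes were those of 1500015O10Rik at 1.77 ± 0.42 (SE, adjusted p 0.00313) and Sox21, a transcription factor gene also found in other glia, at -1.27 ± 0.17 (SE, adjusted p 2.34e-06). In mice labelled Abca7, 4 rose and 2 fell, which is 7.89% of the list against 11.8% of all genes. Of 33 genes of intraflagellar transport, which primary cilia of neurons and glia also use, 3 rose and 2 fell in control mice and none passed under the Abca7 label. Ttc30b was at 0.22 ± 0.06 (SE, adjusted p 0.0143) and Ift27 at 0.20 ± 0.05 (SE, adjusted p 0.00528), and the median of the list was 0.01. The share called, 15.2%, was near the 17.3% of all genes, and none passed with Ttr as a covariate. In the comparison of genotypes without LPS no gene of these 4 lists passed, while 59 of the 76 further ciliated genes and 18 of the 33 transport genes had estimates above 0. With Ttr as a covariate these were 43 and 23.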

How the data were processed

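Total RNA of cortex was sequenced in 24 libraries, 6 per group. Per the series design text, gene counts were made with the MAP-RSeq workflow, with STAR 2.5.2b as aligner and mm10 as genome per the submitters' processing notes. Which annotation was used, and whether counting used strand, is not stated. What the authors deposited is a table of raw, unscaled read counts. Totals per library lay between 48149131 and 75741388.

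Genes were kept with filterByExpr by group (21891 of 43346), scaled with TMM and fitted over all 24 libraries, with 1 coefficient per group, in edgeR 4.0.16 under R 4.3.3. The quasi-likelihood F test was two-sided and was tested on simulated data. Its p-values were adjusted by Benjamini-Hochberg across the 21891 genes, and calls were made under 0.05. The SE of a log2 fold change is the change divided by the root of F. Log2 CPM used a prior count of 2, and CPM used none. Alternatives were RLE factors, other filters on low counts, age as a factor, Ttr as a covariate, only the groups compared, DESeq2 1.42.0 and leaving out each library. A covariate of thalamus and habenula genes and a fit without the libraries low in Ttr were chosen after seeing the data, as was applying these fits and the Ttr covariate to the lists of cilia genes. Overlaps came from GENCODE M21 on the same genome, with 50-base sequences compared between genes.

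Named members were the 14 single genes, the 3 with the highest level per length in each of the Dnah, Rsph, Cfap and Tekt families, each member past the threshold, and the 3 highest and lowest in correlation with the other members. In other lists, the 2 largest changes past the threshold were named. Members named outside that rule were chosen after their values were seen. The members and lists were chosen with earlier results of these data known, and directions already visible there are no independent evidence.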

Additional observations from a re-analysis of the deposited data

Results flagged for a closer look

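A search of the named members, of Ttr and of the mean of the 58 members for a library far from the other 5 of its group covered 128 groups of 6, and found 5. Chance alone marks about 1 in 20 such groups. Ttr was at 8.03 log2 CPM in unstimulated control replicate 1, while the other 5 libraries of that group lay between 2.31 and 4.30. The mean of the members was at 1.52 log2 CPM in that same library, with the other 5 between 1.19 and 1.28. Ttr was at 4.60 log2 CPM in LPS replicate 6 labelled Abca7, with the others between 7.85 and 8.57. Dnah3 was at 1.45 log2 CPM in control LPS replicate 1, below the others at 1.65 to 1.73. Rsph10b was at 2.69 log2 CPM in LPS replicate 5 labelled Abca7, below the others at 2.87 to 2.95.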

How the results depend on the processing

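Counts of called members (5 with LPS in control mice, 2 with LPS in mice labelled Abca7, 2 between genotypes without LPS, 0 between genotypes under LPS, 0 for the interaction) stayed within 1.5 times under RLE factors and the stricter filter, which tested 48 members. No estimate past the threshold changed sign in any alternative. Among those short of it, 85 of 141 did so at least once, none of them called there. The median over members for LPS in mice labelled Abca7, 0.01, was -0.05 with age as a factor, -0.05 with the thalamus and habenula covariate and -0.000626 under the stricter filter. With LPS in control mice the count was 7 with age as a factor, 6 of them higher, and 7 with DESeq2, all higher. It was 2 with Ttr as a covariate, 3 with the thalamus and habenula covariate, and 3 to 11 when each library was left out. With LPS in mice labelled Abca7 it was 5 with age as a factor and 4 with the thalamus and habenula covariate, and 1 to 3 without single libraries; the calls gained were Foxj1 and Ak7 in both fits, and Tmem212 with age, each lower with LPS. Between genotypes without LPS it was 1 with no filter on low counts, 5 with age as a factor, 4 with DESeq2, 0 with Ttr as a covariate, 0 on the compared groups alone, 0 without the libraries low in Ttr, and 0 to 3 without single libraries. Over all genes, the 3790 calls for LPS in control mice became 4103 with age, 4198 in DESeq2 and 1626 with Ttr as a covariate. With the thalamus and habenula covariate they were 3458. For LPS in mice labelled Abca7, the 2591 calls became 2333 with age and 2775 with the thalamus and habenula covariate. Between genotypes without LPS, the 7 calls became 49 with age, 36 with the thalamus and habenula covariate and 31 in DESeq2. They were 6 with no filter on low counts, and 3 with Ttr or on the compared groups alone. For the fits without single libraries no share of all genes is given, so those member counts show nothing particular to the members. Cfap43 kept both LPS calls in each alternative, and Tekt4 kept its call in control mice. The cause of these shifts was not tested. No paired analysis was possible because the labels give no replicate numbers. Members with few counts, such as Dnah14 with 1 to 25 per library, could show only large differences.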
